A study of Homo sapiens with 6 samples.

Results

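The beta-like globin genes of human chromosome 11 are HBE1, HBG1, HBG2, HBD and HBB, which encode the epsilon, A-gamma, G-gamma, delta and beta chains of haemoglobin. They were taken by symbol and are 5 of the 28069 genes in the estimated-count tables. RNA was sequenced from K562, an established human erythroleukaemia line derived from chronic myeloid leukaemia, in 6 libraries. The control group carried the guide labelled sgNeg2 and was labelled wild type, and the sgRNA1 and sgRNA2 groups carried guide 1 or guide 2 against ZNF410 and were labelled ZNF410 knockout, with 2 libraries in each of the 3 groups. All cells were grown in IMDM, and the libraries of each group carried the replicate numbers 1 and 2. The labels did not say what a number stood for, whether replicates were separate cultures or whether a line was a clone or a pool, so p-values measure the spread between these libraries, which may be technical.

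Haemoglobin is a tetramer of alpha-like and beta-like chains. The beta-like genes lie in the order in which they are used in development: HBE1 is active in embryonic red cells, HBG1 and HBG2 in fetal red cells, and HBD and HBB after birth, with HBD a minor component in adults. A distal enhancer, the locus control region, serves all of them, and repressors keep the embryonic and fetal genes low in adult cells. One such repressor is the NuRD complex, whose ATPase CHD4 is a transcriptional target of the zinc finger protein ZNF410. K562 cells are known for making embryonic and fetal rather than adult globin.

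In RefSeq (GRCh38.p14) the genes follow each other on the minus strand of chromosome 11 without overlapping: HBB at 5225464 to 5227071, HBD at 5232838 to 5234483, HBG1 at 5248269 to 5249857, HBG2 at 5253188 to 5254781 and HBE1 at 5268345 to 5269945. Between HBD and HBG1 lie the pseudogene HBBP1 at 5241954 to 5243592 and the long noncoding RNA gene BGLT3 at 5244554 to 5245546. HBE1 lies 13563 bases from HBG2, and HBG2 lies 3330 bases from HBG1. In GENCODE v29 some longer transcripts share exon bases, 37 between HBE1 and HBG2 and 88 between HBD and HBBP1, and it is not given in the sources used here whether the authors' gene models held them. HBG1 and HBG2 are near-identical copies, so how their reads are divided depends on the counting, and their sum is given beside the single genes.

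Of the 5 genes, 1 was matched in the RefSeq promoter table, HBD, the gene with the lowest TPM of the 5 in every library. Its 250 bases before the start, chr11:5234484-5234733 on the minus strand of GRCh38.p14, are shown as the one promoter of the 5 that the table held. The capitals mark the letters CCAAT at position -153 on the gene's strand and, at position -78, the GATA-factor motif AGATAA read on the other strand.
HBD promoter: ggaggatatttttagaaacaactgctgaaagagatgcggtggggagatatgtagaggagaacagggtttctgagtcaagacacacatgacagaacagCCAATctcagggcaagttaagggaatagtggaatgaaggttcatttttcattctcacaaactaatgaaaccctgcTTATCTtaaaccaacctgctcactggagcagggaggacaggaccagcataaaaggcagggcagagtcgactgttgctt
On either strand, CCAAT occurs in 32.01% and AGATAA in 9.17% of the 35116 RefSeq promoter windows of this length. The letters CACCC, found in 54.71% of the windows, TATAAA, in 10.72%, and TGACCA, in 9.19%, were searched on both strands and are not in this window. A match of letters is a description and shows no binding.

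The libraries held 17228254 to 18689560 estimated counts and 8788816 to 9537470 whole-number counts on genes. ZNF410 stood at 21.2 and 22.4 TPM in the control libraries and at 9.35 to 13.2 TPM in the 4 knockout libraries, and CHD4 at 126 and 159 TPM against 62.8 to 76.3 TPM, with no overlap for either gene. All 10 K562 marker genes were detected. Among markers of other cell types, the megakaryocyte list (5 genes, PF4 at 0) summed to 10.3 to 14.6 TPM in replicate 1 and 2.43 to 2.94 TPM in replicate 2. In replicates 1 and 2, ITGA2B alone was at 9.83 and 1.25 TPM in the control, 13.95 and 1.65 TPM with sgRNA1, and 13.21 and 1.83 TPM with sgRNA2. No other gene of this list was lower in replicate 2 in any group. The myeloid list (4 genes, MPO at 0) was mostly LYZ and summed to 12.8 to 17.5 and 3.61 to 5.82 TPM, and the lymphoid list (4 genes) to at most 1.46 TPM. The epithelial list (3 genes, KRT5 at 0) was almost all EPCAM and summed to 104 and 109 TPM in the control and 88.6 to 94.2 TPM in the knockout libraries, and the hepatic marker ALB was at 0. The part of cells carrying these markers in the globin changes was not tested.

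The gamma genes dominated beta-like globin RNA in every library. On the TPM scale, which is per transcript length, the order of the levels was HBG2, HBG1, HBE1, HBB and HBD in all 6 libraries. The 5 genes together made up 1.72% to 5.41% of all TPM. HBG2 ranked between the first and the 4th most abundant of all genes and HBG1 between the second and the 12th, while HBE1 ranked between 65 and 514, HBB between 2084 and 9504 and HBD between 3077 and 11789. Neighbours in this order stood clear of each other in each library, except HBB and HBD in control replicate 2, where the 95% Poisson intervals of 23.7 to 34.2 TPM and 21.2 to 29.4 TPM overlapped. Such intervals cover counting error only.

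**Figure D1:**
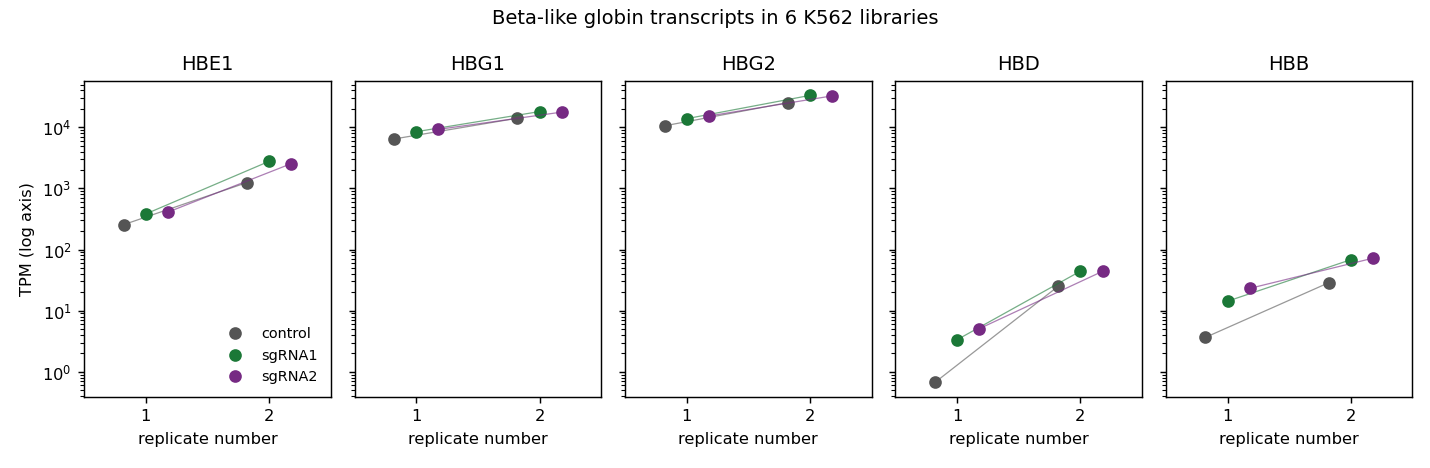
TPM of each beta-like globin gene (y axis, log scale) by replicate number (x axis), with 1 panel per gene and 1 point per library. Lines join the 2 libraries of a group. In every panel the replicate 2 points lie above the replicate 1 points, and the sgRNA1 and sgRNA2 points lie above the control point of the same number.

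HBE1, which encodes the embryonic epsilon chain, had levels of 255 TPM in control replicate 1 and 1246 TPM in control replicate 2. The sgRNA1 libraries gave 383 and 2772 TPM, and the sgRNA2 libraries 410 and 2544 TPM, in the same order of replicate numbers. The replicate 2 libraries were all higher than the replicate 1 libraries, so the control and knockout groups overlapped, but each knockout library was above the control of its own number. HBG1, which encodes the A-gamma chain, stood at 6428 and 14051 TPM in the control, 8453 and 18039 TPM with sgRNA1, and 9230 and 17684 TPM with sgRNA2. HBG2, which encodes the G-gamma chain, stood at 10544 and 25310 TPM in the control, 13809 and 33184 TPM with sgRNA1, and 15277 and 32583 TPM with sgRNA2. Both gamma genes showed the same arrangement as HBE1, with a smaller distance between the replicate numbers.

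HBD, which encodes the delta chain of the minor adult haemoglobin, was near the limit of detection in control replicate 1, at 0.67 TPM from 4 estimated counts (95% Poisson interval 1.09 to 10.2 counts). It stood at 25.1 TPM in control replicate 2, at 3.35 and 44.2 TPM with sgRNA1, and at 5.08 and 44.0 TPM with sgRNA2. HBB, which encodes the adult beta chain, stood at 3.65 TPM in control replicate 1, from 15 estimated counts, and at 28.6 TPM in control replicate 2. The sgRNA1 libraries gave 14.3 and 68.2 TPM for HBB, and the sgRNA2 libraries 23.1 and 72.2 TPM. Both adult genes again overlapped between the groups and were ordered control below guides within each replicate number.

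Without the replicate number in the model, none of these differences was larger than the spread between replicates. In the edgeR quasi-likelihood test of the 4 knockout against the 2 wild-type libraries, the log2 fold changes were 1.05 (SE 1.04) for HBE1, 0.40 (SE 0.413) for HBG1, 0.42 (SE 0.475) for HBG2, 0.94 (SE 1.43) for HBD and 1.48 (SE 0.941) for HBB, each with an adjusted p of 1.00. This fit called 0 of 12764 genes (0.00%), with 316 at an unadjusted p under 0.05 and none of the 5 globin genes among them. DESeq2 without the number called 21 of 12762 genes and limma on log2(TPM + 1) called 1 of 12249. Each of the 5 globin genes lay above the control of its number in all 4 knockout libraries, as did 2173 of the 12764 tested genes (17.0%, log2 CPM).

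Libraries with the same number deviated together, so the fit with the number as a replicate block is given beside it. With the replicate block, all 5 genes rose in the knockout libraries, against 1.97% of 12764 genes called higher. The edgeR quasi-likelihood test gave HBE1 a fold change of 1.84 (log2 0.88, SE 0.0957, adjusted p = 0.000265). HBG1 rose 1.33-fold (log2 0.41, SE 0.0470, edgeR adjusted p = 0.000372) and HBG2 1.35-fold (log2 0.43, SE 0.0453, edgeR adjusted p = 0.000213). The summed gamma genes rose 1.34-fold (log2 0.43, SE 0.0433, edgeR adjusted p = 0.000177). HBB rose 3.03-fold (log2 1.60, SE 0.235, edgeR adjusted p = 0.00245). HBD rose 2.12-fold (log2 1.09, SE 0.248, edgeR adjusted p = 0.0341). On the TPM scale the gamma genes had the largest difference in level: the mean of their sum was 28166 ± 15831 TPM (SD, n = 2) in the control, 36743 ± 20479 TPM (SD, n = 2) with sgRNA1 and 37387 ± 18215 TPM (SD, n = 2) with sgRNA2. The corresponding HBB means were 16.1 ± 17.6, 41.2 ± 38.1 and 47.7 ± 34.7 TPM (SD, n = 2 each).

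These blocked calls had limits. Limma on log2(TPM + 1) with the block and no filter on low TPM kept every direction and lost all 5 calls (adjusted p from 0.113 for HBE1 to 0.175 for HBD). HBD was called in 6 of 13 alternatives, with a log2 fold change of 2.59 without control replicate 2 and 0.85 without control replicate 1 (edgeR adjusted p 0.0167 and 0.0781). Without control replicate 2, HBB stood at a log2 fold change of 2.34 and HBE1 at 0.61, and without control replicate 1 at 1.32 and 1.13 (edgeR adjusted p 0.00404, 0.00123, 0.0127 and 3.02e-06). In bulk RNA, a change in the number of globin-expressing cells and a change in globin RNA per cell cannot be told apart.

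Each guide was also compared with the control on its own. With sgRNA1 and the block, 4 of the 5 genes rose, against 1.00% of all tested genes called higher. The log2 fold changes were 0.92 for HBE1, 0.41 for HBG1, 0.42 for HBG2 and 1.45 for HBB (edgeR adjusted p 0.000608, 0.00130, 0.000778 and 0.0111). HBD had a log2 fold change of 1.03 (SE 0.284, edgeR adjusted p = 0.116). With sgRNA2 and the block, 4 of the 5 genes rose, against 1.36% of all tested genes. The log2 fold changes were 0.84 for HBE1, 0.42 for HBG1, 0.44 for HBG2 and 1.74 for HBB (edgeR adjusted p 0.000771, 0.000827, 0.000434 and 0.00228), and that of HBD was 1.14 (SE 0.286, adjusted p = 0.0626). Both comparisons share the 2 control libraries. DESeq2 with the block did not call HBG1 with either guide (adjusted p 0.140 for sgRNA1 and 0.0883 for sgRNA2). It also did not call the summed gamma genes (DESeq2 adjusted p 0.422 and 0.255), though it called HBG2 (1.33e-07 and 1.57e-08). Limma on log2(TPM + 0.1) did not call HBB with sgRNA1 (adjusted p = 0.0748). Without control replicate 2 the log2 fold changes of HBE1, HBB and HBD were 0.65, 2.19 and 2.54 for guide 1, and for guide 2 they were 0.58, 2.46 and 2.64. HBD then passed the threshold with both guides (edgeR adjusted p 0.000547 and 0.000296), but the control was then 1 library with 4 HBD counts, assumed to vary like the other groups. Over all 13 blocked alternatives it was called in 4 with sgRNA1 and 7 with sgRNA2 (adjusted p from 0.000422 to 0.965 and from 5.96e-05 to 0.452).

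**Figure D2:**
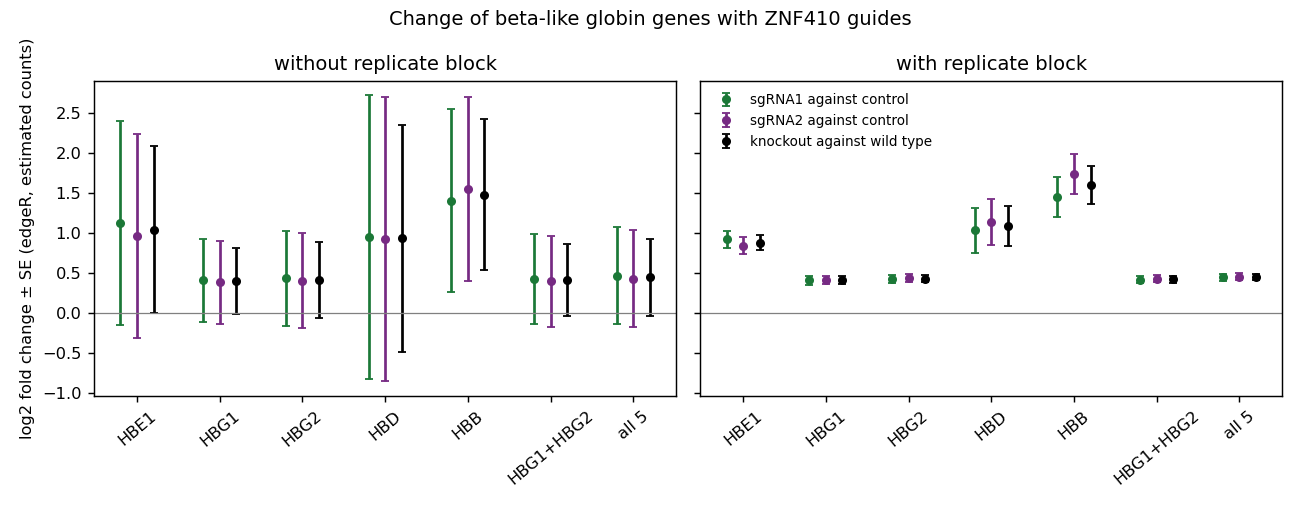
Log2 fold change (y axis) of each beta-like globin gene, of the summed gamma genes and of all 5 summed, from edgeR on estimated counts, without the replicate block (left) and with it (right). Points are estimates, bars are 1 SE to each side, and colours mark the 3 comparisons with the control. The estimates are alike in both panels, from 0.40 for HBG1 to 1.48 for HBB in knockout against wild type without the block and from 0.41 to 1.60 with it, while the bars are much shorter with the block.

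The guides were compared with each other directly. The log2 difference of sgRNA2 from sgRNA1 with the block was -0.08 for HBE1 (95% interval -0.30 to 0.14), 0.01 for HBG1 (-0.11 to 0.12) and 0.02 for HBG2 (-0.09 to 0.12). It was 0.10 for HBD (-0.48 to 0.69) and 0.29 for HBB (-0.20 to 0.78). None of the 5 genes was called by edgeR, where 7 of 12764 tested genes (0.0548%) were. The intervals of HBG1 and HBG2 end at 0.12, below their log2 changes of 0.41 and 0.43 with knockout, whereas those of HBD and HBB are wide.

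The log2 difference between the replicate numbers exceeded the blocked change with knockout for each of the 5 genes. In the edgeR fit with group as covariate, all 5 genes were higher in replicate 2, against 25.5% of tested genes called higher. The log2 difference was 2.52 for HBE1 (SE 0.0885, edgeR adjusted p = 6.21e-10), 0.97 for HBG1 (SE 0.0430, adjusted p = 3.87e-09) and 1.13 for HBG2 (SE 0.0410, adjusted p = 8.48e-10). HBD differed by 3.61 (SE 0.247, adjusted p = 1.59e-07) and HBB by 2.05 (adjusted p = 3.24e-06). In TPM, the ratio of replicate 2 to replicate 1 in the control, sgRNA1 and sgRNA2 groups was 4.88, 7.25 and 6.21 for HBE1. The same ratio was 2.32, 2.30 and 2.05 for the summed gamma genes. For HBD it was 37.4, 13.2 and 8.67, the first from 4 counts, and for HBB 7.83, 4.77 and 3.12. The megakaryocyte gene ITGA2B went the other way, at 9.83 to 13.9 TPM in replicate 1 and 1.25 to 1.83 TPM in replicate 2, as did the myeloid gene LYZ, at 11.9 to 16.7 and 3.01 to 4.94 TPM. The part of cell state or cell mixture in the globin difference between the numbers was not tested.

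The change with knockout was then compared between the numbers. For HBE1 the log2 TPM ratio to the control of the same number was 0.58 with sgRNA1 and 0.68 with sgRNA2 in replicate 1, and 1.15 and 1.03 in replicate 2. For the summed gamma genes it was 0.39 and 0.53 in replicate 1 and 0.38 and 0.35 in replicate 2. For HBB it was 1.97 and 2.66 in replicate 1 and 1.25 and 1.34 in replicate 2. For HBD it was 2.32 and 2.92 in replicate 1 and 0.82 and 0.81 in replicate 2, where the replicate 1 ratios rest on the 4 counts of the control. HBE1 had the larger ratio in replicate 2, and the adult genes in replicate 1.

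In the interaction test, edgeR called none of the 5 genes and 14 of 12764 tested genes (0.110%). The change of HBE1 was larger in replicate 2 by 0.51 on the log2 scale (SE 0.114, 95% interval 0.27 to 0.76, edgeR adjusted p = 0.127). The HBE1 difference passed the threshold in DESeq2 (log2 0.51, adjusted p = 0.0187) and in edgeR when any 1 of the 4 knockout libraries was left out, in fits with few residual degrees of freedom (log2 0.41 to 0.61, adjusted p from 0.000196 to 0.0138). The HBD difference was -1.75 (SE 0.609, edgeR adjusted p = 0.383) and that of HBB -1.02 (SE 0.464, edgeR adjusted p = 0.522). The summed gamma genes differed by -0.07 on the same scale. Each number had 1 control library, which was assumed to vary like the knockout libraries.

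**Figure D3:**
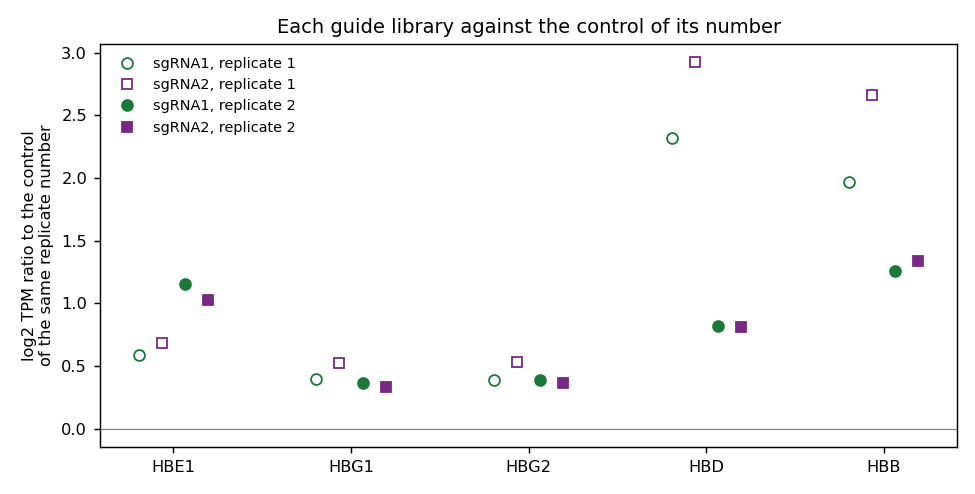
Log2 ratio of TPM (y axis) of each of the 4 knockout libraries to the control library of the same replicate number, by gene (x axis), with open symbols for replicate 1 and filled symbols for replicate 2. All points lie above the line at 0. HBE1 has its higher points in replicate 2 (1.15 and 1.03), and HBD and HBB have theirs in replicate 1.

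The composition of beta-like globin was computed as each gene's share of the summed TPM of the 5 genes. In the control libraries the gamma genes held 98.5% in replicate 1 and 96.8% in replicate 2. The sgRNA1 libraries had 98.2% and 94.7%, and the sgRNA2 libraries 98.2% and 94.97%. The HBE1 share was 1.48% and 3.07% in the control, 1.69% and 5.12% with sgRNA1, and 1.64% and 4.81% with sgRNA2. HBE1 gained, over the control of the same number, 0.206 and 0.162 percentage points in replicate 1 and 2.06 and 1.74 percentage points in replicate 2. HBG2 held 60.9% to 62.2% in all 6 libraries. HBG1 held 37.0% to 37.3% in replicate 1 and 33.3% to 34.6% in replicate 2.

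Adult globin stayed a trace component. The HBB share was 0.0212% and 0.0703% in the control, 0.063% and 0.126% with sgRNA1, and 0.0928% and 0.136% with sgRNA2. For HBD the share was 0.0039% and 0.0617% in the control, 0.0148% and 0.0818% with sgRNA1, and 0.0204% and 0.0832% with sgRNA2. Every knockout library had a higher HBE1, HBB and HBD share, and a lower summed gamma share, than the control of its number. The HBG1 share was also lower in each, by as little as 37.3014% against 37.3033% with sgRNA1 in replicate 1. In the whole-number table the HBG1 share was higher in replicate 1 with the guides, at 11.8% for guide 1 and 13.1% for guide 2 against 9.34% in the control.

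The mean HBE1 share was 2.27% in the 2 wild-type and 3.32% in the 4 knockout libraries, a difference of 1.04 percentage points (two-sided exact permutation test, p = 0.467, where the smallest p that 15 arrangements allow is 0.0667). Permuted within the replicate numbers as a paired comparison, the same difference had an exact p of 0.111, which is the smallest that 9 arrangements allow. The difference was 1.78 points as a share of estimated counts (4.03% and 5.81%) and 5.00 points as a share of whole-number counts (11.8% and 16.8%), neither of which is per length. In TPM it was 0.250 points without control replicate 1 and 1.83 points without control replicate 2. The difference was -0.667 points for HBG1, -0.451 for HBG2, -1.12 for the summed gamma genes, 0.0588 for HBB and 0.0173 for HBD. The paired exact permutation p of these 5 was 0.111, except for HBG2 with 0.222. No share could pass 0.05 in this design, and 6 shares were compared.

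**Figure D4:**
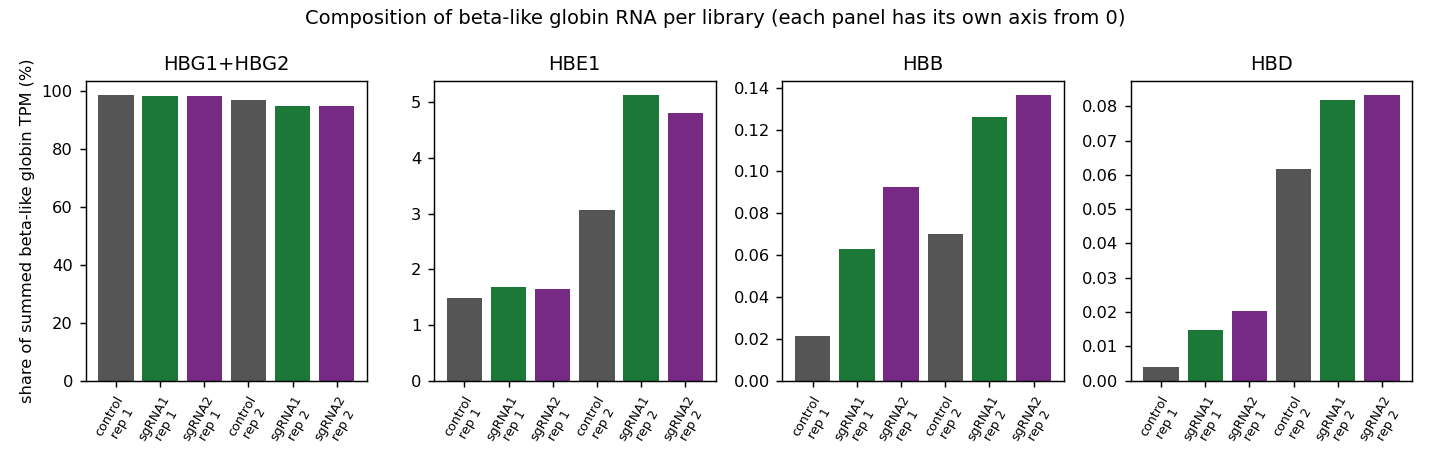
Share of summed beta-like globin TPM (y axis, percent, starting at 0 with its own scale in each panel) held by the summed gamma genes, HBE1, HBB and HBD, with 1 bar per library ordered by replicate number and group. The HBE1 bars stand at 1.48% to 1.69% in replicate 1 and 3.07% to 5.12% in replicate 2, with the control the lowest within each number.

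The summed gamma genes were 66.5 and 31.6 times as abundant as HBE1 in the control, 58.2 and 18.5 times with sgRNA1, and 59.8 and 19.8 times with sgRNA2. HBB exceeded HBD by 5.45 and 1.14 times in the control, 4.26 and 1.54 times with sgRNA1, and 4.56 and 1.64 times with sgRNA2. HBB and HBD were thus closest in level in the replicate 2 libraries. HBG1 made up 35.3% to 38.1% of the gamma estimated counts.

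The whole-number table, made by a counter that left 61.6% to 62.6% of its total in rows that name no gene, put fewer reads on the gamma genes. Its values were 0.0433 to 0.0579 times the estimated counts for HBG1 and 0.206 to 0.235 times for HBG2, against 0.494 to 0.530 times for HBE1. HBG1 was therefore 10.1% to 14.6% of the gamma whole-number counts, and the HBE1 share of the 5 genes 7.81% to 24.2%. The counts of HBG1, for example, were 989 and 2247 in the control, 1648 and 3093 with sgRNA1, and 2052 and 2733 with sgRNA2. With the block, 4 of the 5 genes rose in this table, against 1.19% of 12282 tested genes. The log2 fold changes were 0.92 for HBE1, 0.59 for HBG1, 0.32 for HBG2 and 1.40 for HBB (edgeR adjusted p 6.42e-06, 0.00362, 0.00207 and 0.00976). HBD had 4 and 88 counts in the control and 9 to 161 in the knockout libraries, and its log2 fold change was 0.89 (edgeR adjusted p = 0.152). The HBG1 and HBG2 changes differ by more in this table than in the estimated counts, and the level of either gamma gene alone depends on the table.

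The partner chains of the beta-like globins come from the alpha-like genes on chromosome 16, and AHSP is the chaperone of free alpha chains. Of the 6 genes of this list, 5 were tested, and 4 rose with knockout in the blocked edgeR fit and none fell, where 1.97% of all tested genes were called higher. Their median log2 fold change was 0.40, against 0.0033 over all tested genes. HBZ, the embryonic zeta chain, stood at 869 and 3460 TPM in the control, 950 and 6644 TPM with sgRNA1, and 989 and 6605 TPM with sgRNA2 (log2 fold change 0.56, edgeR adjusted p = 0.0315). AHSP stood at 91.7 and 91.2 TPM, 137 and 107 TPM, and 153 and 128 TPM in the same order (log2 0.52, edgeR adjusted p = 0.0161). The near-identical HBA2 and HBA1 had log2 fold changes of 0.40 and 0.34 (edgeR adjusted p 0.0283 and 0.0343). With the guides taken singly, none of the list was called with sgRNA1, where 1.00% of all tested genes were called higher, and 2 rose with sgRNA2, where 1.36% were. The ratio of beta-like to alpha-like TPM was 2.80 and 3.73 in the control, 3.46 and 3.07 with sgRNA1, and 3.44 and 3.03 with sgRNA2, so it had no common direction across the replicate numbers.

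Among 18 neighbours of the cluster, 9 were tested, 1 rose and none fell, where 1.97% of all tested genes were called higher. Their median log2 fold change was 0.067, against 0.0033 over all tested genes. Guide 1 alone gave 0 called neighbours and a median of -0.04, and guide 2 alone 1 called higher and a median of 0.16, against 1.00% and 1.36% of all tested genes called higher. The neighbour that rose in knockout against wild type was HBBP1, the beta-like pseudogene, at 78.7 and 183 TPM in the control, 116 and 207 TPM with sgRNA1, and 136 and 227 TPM with sgRNA2 (log2 0.44, edgeR adjusted p = 0.0216). BGLT3, the noncoding RNA beside HBG1, stood at 6.32 and 9.53, 6.11 and 7.74, and 8.43 and 11.5 TPM (log2 0.10, SE 0.210, edgeR adjusted p = 0.874). TRIM6, OR51B5 and TRIM5, farther out, had log2 fold changes of 0.34, 0.14 and -0.17 (edgeR adjusted p 0.148, 0.177 and 0.452).

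**Figure D5:**
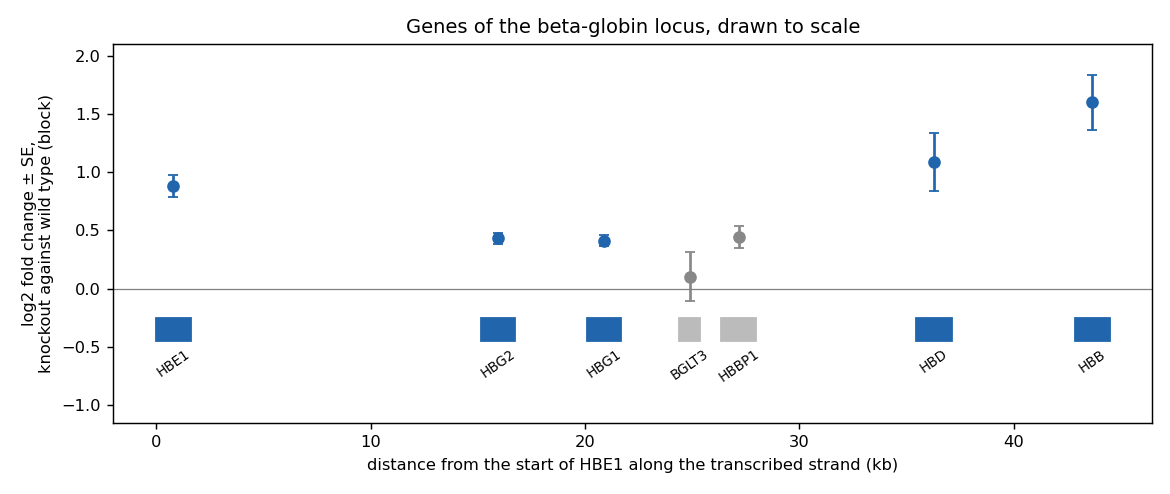
Log2 fold change of knockout against wild type (y axis, edgeR with the replicate block, bars of 1 SE to each side) for the genes of the beta-globin locus, drawn to scale by distance in kilobases from the HBE1 start along the transcribed strand. Blue marks the 5 globin genes and grey HBBP1 and BGLT3. The gamma genes and HBBP1 lie between 0.41 and 0.44, and BGLT3, between HBG1 and HBBP1, lies at 0.10. HBE1 and HBB at the ends of the cluster lie at 0.88 and 1.60, and HBD, between HBBP1 and HBB, at 1.09.

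Of 22 known silencers of the embryonic and fetal genes, 21 were tested, 2 fell and none rose, against 1.07% of all tested genes called lower and 1.97% called higher. Their median log2 fold change was 0.0017, against 0.0033 over all tested genes. Guide 1 alone gave 1 silencer called lower and guide 2 alone 2, against 0.392% and 0.901% of all tested genes called lower. CHD4 fell by 1.06 on the log2 scale (edgeR adjusted p = 1.37e-07). MYB, a transcription factor of immature blood cells, fell by 0.28, from 145 and 101 TPM in the control to 118 and 81.2 TPM with sgRNA1 and 116 and 86.7 TPM with sgRNA2 (edgeR adjusted p = 0.00985). The histone methyltransferase gene EHMT2 and the transcription factor gene NFIA had log2 fold changes of 0.29 and -0.28 (edgeR adjusted p 0.156 and 0.280). Of 14 globin activators and fetal-stage factors, 2 rose and none fell, against the same 1.97% and 1.07% of all tested genes. Their median log2 fold change was 0.077, against 0.0033. Guide 1 alone gave 0 called and guide 2 alone 1 called higher, against 1.00% and 1.36%. The 2 that rose in knockout against wild type were TAL1, an erythroid transcription factor, and ZFPM1, the GATA1 cofactor also called FOG1 (log2 0.25 and 0.40, edgeR adjusted p 0.0292 and 0.0343). LDB1, which links the locus control region to globin promoters, and KLF1, the activator of HBB, had log2 fold changes of 0.15 each (edgeR adjusted p 0.148 and 0.244). Without the block none of the genes named from these lists was called (edgeR adjusted p 0.205 for CHD4, 0.810 for ZNF410 and 1.00 for the others).

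The genes whose pattern across the 6 libraries was most like each globin were ranked among 10634 genes by the root mean square difference of centred log2 CPM, as a description. For HBE1, which spanned 3.40 log2 units, the closest was HBZ, the alpha-like gene of the same embryonic stage, at 0.171. MAP1A followed at 0.386, then ALAS2, the erythroid enzyme of haem synthesis, at 0.401, and TNFRSF14-AS1 at 0.402. For the summed gamma genes, which spanned 1.56 log2 units, the closest were S100A4 at 0.0717, PRXL2B at 0.0942 and ERMAP, an erythroid membrane protein, at 0.1003. The near-identical copies SULT1A3 and SULT1A4 followed at 0.102 and 0.105. All of these genes were higher in TPM in replicate 2 than in replicate 1 of every group. The ranking selects for this, since HBE1 and the gamma genes were themselves higher in replicate 2.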

How the data were processed

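Per the submitters' processing notes, Trim Galore, HISAT2 2.2.1, SAMtools 1.9, HTSeq 0.6.1, RSEM 1.3.2, DESeq2 1.36.0 and hg38 were used, with roles and strand setting not given in the sources used here. The authors deposited 2 tables per library. Per the file headers, one holds estimated counts, TPM and FPKM per gene, and the other, from its values, whole-number counts per symbol. The members and gene lists were chosen with earlier results of these data known.

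Estimated counts were rounded to whole numbers and tested with edgeR 4.0.16 (quasi-likelihood, TMM scaling, filterByExpr, Benjamini-Hochberg over all tested genes, threshold 0.05, R 4.3.3). SEs were taken as the log2 fold change over the root of the F statistic. The main design has no replicate block. Deviations of same-numbered libraries correlated at 0.828, 0.766 and 0.747 for the 3 pairs of groups over the 10639 genes averaging 50 or more estimated counts. The pairing thus comes from the shared numbers in the labels and this check. Summed genes replaced their members in the table. Replicates differed beyond sampling noise (chi-square per degree of freedom 45.5 to 56.6). Named from each list were the 4 genes with the smallest blocked adjusted p, with BGLT3 and the markers ITGA2B, LYZ and EPCAM added after their values were seen, and the 5 nearest genes to HBE1 and the gamma sum (prior count 1), of which 1 is not reported here. DESeq2 1.42.0 and limma 3.58.1 (log2 of TPM plus 1 or 0.1, TPM minimum 0.5) were alternatives. The fits were also run on simulated data with the same replicate effect in every group and a spread near the blocked estimate. That setting assumes the pairing and does not test it.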

Additional observations from a re-analysis of the deposited data

How the results depend on the processing

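Depth limits HBD and HBB, which rest on 4 and 15 estimated counts in control replicate 1, and counting limits the split of the gamma genes. With 2 libraries in a group, the outcome depends on whether the replicate number is modelled. Without the block 0 of the 5 genes was called in any comparison with the control; with the replicate block 4 were called with sgRNA1, 4 with sgRNA2 and 5 in knockout against wild type. Under limma on log2(TPM + 1) with the block and no TPM filter, 0 were called in each of these 3 comparisons, and the cause was not tested. Of 273 blocked values against the control under the alternatives, 232 kept direction and side of the threshold, 30 lost the call, 11 gained it and 0 changed direction. The interaction called 1 gene, HBE1, under DESeq2, and the fits with a knockout library left out are given above.

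Without the block, leaving out a library moved the replicate numbers out of balance. The lowest log2 values then came without replicate 2 of the guide, or without control replicate 1 for knockout, and the highest without control replicate 2. For sgRNA1 against control the range was -0.88 to 2.59 for HBE1, -0.21 to 1.02 for HBG1, -0.31 to 1.13 for HBG2, -1.84 to 5.07 for HBD, -0.0899 to 3.46 for HBB, -0.27 to 1.09 for the gamma sum and -0.30 to 1.16 for all 5 summed. For sgRNA2 against control it was -0.82 to 2.43 for HBE1, -0.0948 to 1.00 for HBG1, -0.17 to 1.11 for HBG2, -1.27 to 5.05 for HBD, 0.59 to 3.61 for HBB, -0.14 to 1.07 for the gamma sum and -0.17 to 1.13 for all 5. For knockout against wild type it was -0.0292 to 1.01 for HBG1, -0.0513 to 1.12 for HBG2, -0.0172 to 5.06 for HBD, 0.33 to 2.51 for HBE1, 0.67 to 3.54 for HBB, -0.0434 to 1.08 for the gamma sum and -0.0197 to 1.15 for all 5.

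The difference of sgRNA2 from sgRNA1, never called for these genes, changed sign most often. Without the block, leaving out libraries gave -1.94 to 1.85 for HBE1, -0.51 to 0.59 for HBG1, -0.61 to 0.71 for HBG2, -2.22 to 2.76 for HBD, -0.82 to 1.65 for HBB, -0.57 to 0.67 for the gamma sum and -0.64 to 0.73 for all 5. With the block the ranges were -0.28 to 0.16, -0.10 to 0.11, -0.0838 to 0.12, -0.15 to 0.87, -0.0602 to 0.81, -0.0878 to 0.12 and -0.0833 to 0.10 in the same order. The replicate block itself turned the sign to 0.0057 for HBG1, 0.0162 for HBG2, 0.103 for HBD, 0.0123 for the gamma sum and 0.0090 for all 5, and limma on log2(TPM + 1) to 0.0491, 0.0597, 0.238, 0.0557 and 0.0533. Whole-number counts gave 0.0371 for HBG1 and -0.19 for HBB without the block and -0.0649 for HBB with it. In the interaction, whole-number counts gave 0.0203 for HBG2 and 0.0812 for all 5, and leaving out libraries gave -0.13 to 0.0082 and -0.0854 to 0.0413.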
